A study of Mus musculus with 6 samples.

Results

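The genes described here are 10 members of the transforming growth factor beta (TGF-beta) and bone morphogenetic protein (BMP) pathway, namely the ligand genes Tgfb1, Tgfb2, Tgfb3, Bmp2, Bmp4, Bmp7 and Inhba, the receptor genes Tgfbr1 and Tgfbr2, and the target gene Id1. They were chosen by name, and every probe set annotated to exactly 1 of these symbols was taken, which gave 21 of the 45101 probe sets on the array. Several short probes make up a probe set, which gives 1 value per array, and a gene can have more than 1 probe set. Total RNA had been isolated from the tumours of 3 IL8 transgenic mice, which carry the human gene, and from those of 3 control mice recorded as wild type, each hybridised to its own Affymetrix array. The tumours were of the colon, and both groups were labelled male and of the mixed CBA/C57BL/6 strain. Age, the promoter that drives the transgene, the way the tumours arose and whether a sample held 1 tumour or several were not stated in the labels. The product of IL8 is a chemokine that draws neutrophils into tissue.

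TGF-beta family ligands are secreted dimers that bring together type I and type II receptor kinases, which then phosphorylate Smad transcription factors. TGF-betas and activins act mainly through Smad2 and Smad3, BMPs through Smad1, Smad5 and Smad9, and both arms share Smad4. In the colon, BMPs hold back stem cell renewal as cells leave the crypt base, antagonists such as gremlin made by cells around the crypt base limit them, and TGF-beta receptor signalling restrains epithelial growth and is often lost in colorectal cancer.

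The labels and the data differed on sex. Xist, a long RNA made from an inactivated X, lay at 12.27 to 12.89 on the log2 scale on the 3 transgenic arrays and at 2.33 to 2.64 on the 3 control arrays, and Eif2s3y, a Y-linked translation factor gene, at 2.39 to 2.71 on the transgenic and at 9.99 to 10.22 on the control arrays. Genotype and this split coincide on every array, so the contribution of sex and that of the transgene cannot be told apart in any difference given here. The 9 colon epithelium markers examined, from Epcam (13.82 or more on every array) to Cdx2 (6.56 or more), were all above 4 on all 6 arrays. This does not tell colon from other gut epithelium. Transgenic array 2 alone carried the squamous epithelium genes Krtdap at 12.31 and Trp63 at 8.97, against 2.62 or less on the other arrays for both. Krt5 and Krt13 were also under 4 on the other arrays. Krt14 lay there at 5.70 to 8.04, Krt6a at 3.06 to 6.96 and Sprr1a at 5.15 to 8.59, each highest on transgenic array 2. Between the 3′ and 5′ Gapdh probe sets the log2 difference was lowest on transgenic array 1, at 0.71, and 0.87 to 0.96 elsewhere. Across kept probe sets, arrays correlated at 0.925 to 0.954 within the transgenic group and at 0.975 to 0.983 within the control group. Transgenic array 3 correlated with the 3 controls at 0.971 to 0.987, above its 0.954 with each of the other two transgenic arrays, which correlated with the controls at 0.924 to 0.955. Nothing says how the samples of a group relate beyond their labels, and the spread behind each p-value may therefore be partly technical. In bulk tumours, fewer cells of a type and less RNA per cell cannot be told apart.

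No promoter binding was measured. The stretches upstream of 2 members are shown because Bmp4 had the largest group difference among the members and Inhba the widest spread between arrays. Each is the 250 bases before the gene start in RefSeq on GRCm38.p6, that of Bmp4 at chr14:46390670-46390919 on the minus strand and that of Inhba at chr13:16011601-16011850 on the plus strand. Capitals mark the core letters that Smad DNA-binding domains recognise, GTCT or its reverse complement AGAC, searched on both strands.
Bmp4: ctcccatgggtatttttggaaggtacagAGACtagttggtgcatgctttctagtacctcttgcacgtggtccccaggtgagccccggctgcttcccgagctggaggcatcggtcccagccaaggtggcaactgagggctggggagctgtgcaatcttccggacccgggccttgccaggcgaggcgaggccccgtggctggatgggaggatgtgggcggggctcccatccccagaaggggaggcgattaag
Inhba: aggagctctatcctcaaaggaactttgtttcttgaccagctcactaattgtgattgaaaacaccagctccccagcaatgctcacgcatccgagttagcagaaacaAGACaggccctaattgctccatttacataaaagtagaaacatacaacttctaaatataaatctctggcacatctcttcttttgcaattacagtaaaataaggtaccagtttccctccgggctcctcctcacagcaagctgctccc
Each stretch held this core 1 time, 222 bases before the start in Bmp4 and 145 bases before it in Inhba, counted from the first base of the match. The core occurs in 82.9% of 32851 such stretches, so its presence describes the letters and marks no site. The 6 members that had a RefSeq promoter gave 7 such stretches, since Tgfbr1 had more than 1. The longer form CAGAC or GTCTG, which contains the core, was in 3 of these 7 (of Tgfb2, Tgfbr1 and Tgfbr2) and in 42.2% of all stretches. GGCGCC, a GC-rich element of BMP-responsive enhancers, was in 1 of the 7 (the other Tgfbr1 stretch) and in 9.59% of all stretches.

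Bmp4 and Bmp7 had lower mean levels in transgenic than in control tumours. On the log2 scale the differences were -1.75 ± 0.52 and -1.41 ± 0.65 (SE, n = 3 per group). They were -0.01 ± 0.23 for Tgfbr1 and -0.09 ± 0.21 for Tgfbr2. For Inhba the difference was 0.13 ± 0.89, with transgenic arrays on both sides of the controls. None of these differences passed limma's test. Testing was limited to probe sets whose log2 value reached 4 on at least 3 of the 6 arrays, which kept 10 of the 21 probe sets, standing for 8 of the 10 genes. At an adjusted p under 0.05, 0 of these 10 probe sets were called by limma with Benjamini-Hochberg adjustment over all 19310 kept probe sets, where 11 probe sets, or 0.057%, were called (0.0207% higher and 0.0363% lower). At an unadjusted p under 0.05 the count was 2 of 10, against 5.5% of all kept probe sets. The smallest adjusted p among the members was 0.806. Of the 10 probe sets, 8 had a lower and 2 a higher mean in transgenic tumours, and the median over the 8 genes was -0.18, against -0.02 over all 10289 genes tested, of which 53.8% were lower. Without transgenic array 2 the median over the 8 genes was -0.04.

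**Figure D1:**
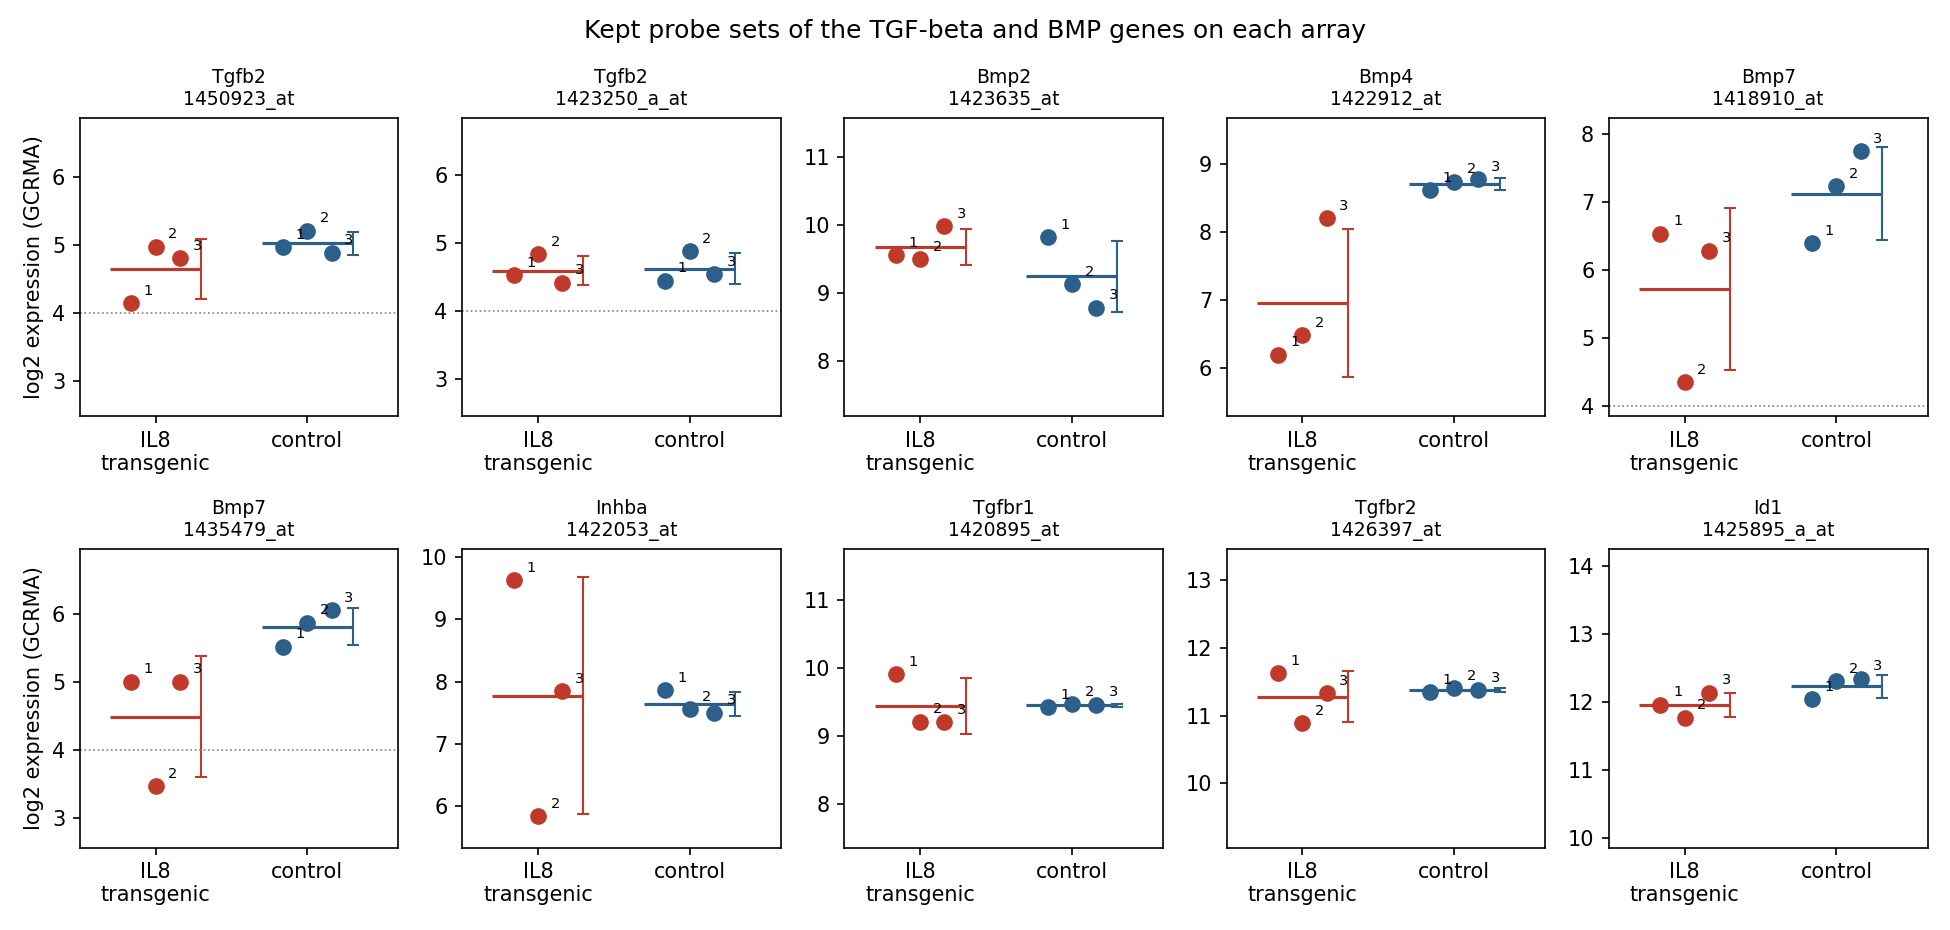
Log2 expression (y axis, GCRMA values) of the 10 kept probe sets on each array, transgenic on the left and control on the right. Each point is an array with its number, the horizontal bar is the group mean, the vertical bar is ± 1 SD (n = 3), and the dotted line at 4 is the level used to keep probe sets. Bmp4 and the second Bmp7 probe set are the panels without overlap between groups, and Inhba has the widest transgenic spread, 5.84 to 9.63.

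Among the TGF-beta ligands, Tgfb1 and Tgfb3 had no kept probe set. Tgfb1, the most widely expressed TGF-beta, was read by 1420653_at at 3.00, 2.47 and 2.60 on transgenic arrays 1, 2 and 3 and at 2.82, 3.13 and 2.72 on control arrays 1, 2 and 3. Its other probe set, 1445360_at, lay at 3.03, 3.26 and 3.15 on the transgenic arrays and at 2.92, 3.45 and 3.18 on the control arrays. Tgfb3, an isoform known for palate closure, was read by 1417455_at at 2.87, 3.08 and 2.71 on the transgenic arrays and at 2.93, 2.69 and 3.06 on the control arrays. All of these values lie under 4 in both groups and overlap, so no fold is given, and a low value can also come from a probe set that reads its transcript poorly.

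Tgfb2, an isoform prominent in development and in epithelial to mesenchymal transition, had 4 probe sets, of which 2 were kept. The brighter of them, 1450923_at, lay at 4.14, 4.97 and 4.81 on the transgenic arrays and at 4.97, 5.21 and 4.88 on the control arrays. Transgenic array 1 was lowest and the groups overlapped. The difference was -0.38 ± 0.25 (SE; 95% interval -0.99 to 0.23; limma adjusted p 0.806), and it was -0.13 without transgenic array 1. The second, 1423250_a_at, gave 4.53, 4.83 and 4.41 on the transgenic arrays and 4.45, 4.88 and 4.54 on the control arrays, a difference of -0.03 ± 0.19 whose sign turned under quantile normalization and without some single arrays. The other two lay under 4 on every array, at 2.57 to 3.61.

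Among the BMP ligands, Bmp4 had the largest difference. Bmp4, which in the gut is made largely by mesenchymal cells next to the epithelium, lay at 6.190, 6.473 and 8.203 on transgenic arrays 1, 2 and 3 and at 8.61, 8.74 and 8.77 on control arrays 1, 2 and 3 (1422912_at). All 3 transgenic arrays were below every control array, but transgenic array 3 was 0.41 below the lowest control while arrays 1 and 2 were more than 2 below it. The means were 6.96 ± 1.09 in transgenic and 8.71 ± 0.09 in control tumours (SD, n = 3 each), a 3.37-fold lower level (difference -1.75 ± 0.52, SE; 95% interval -3.01 to -0.50). This SE and interval come from limma with a common spread for both groups, so they do not allow for the unequal SDs. The unadjusted p was 0.0139 and the limma adjusted p was 0.806, so the difference did not pass. The adjusted p was 0.654 without transgenic array 1 (difference -1.37), 0.924 without transgenic array 2 (-1.51), 0.0504 without transgenic array 3 (-2.37) and 0.821 to 0.999 without a control array. With arrays weighted by quality the difference was -1.09.

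Bmp7, a BMP of epithelia and kidney, was read by 3 probe sets, of which 2 were kept. The brighter, 1418910_at, lay at 6.53, 4.35 and 6.28 on the transgenic arrays and at 6.40, 7.24 and 7.75 on the control arrays. Transgenic array 2 was far below the rest, and transgenic array 1 was above control array 1. The difference was -1.41 ± 0.65 (SE, limma adjusted p 0.806) and was -0.72 without transgenic array 2. The second, 1435479_at, lay at 5.002, 3.464 and 5.002 on the transgenic arrays and at 5.52, 5.87 and 6.06 on the control arrays, without overlap. Its difference was -1.33 ± 0.45 (unadjusted p 0.0236, limma adjusted p 0.806), -0.81 without transgenic array 2 and -1.15 with values under 4 set to 4. The third, 1432410_a_at, reached 4 on 2 control arrays and was not kept, with 3.54, 2.61 and 3.64 on the transgenic arrays and 3.98, 4.33 and 4.42 on the control arrays. All 3 probe sets were lowest on transgenic array 2, the array with Krtdap at 12.31. Of the 10 kept member probe sets, the 2 without overlap between groups, of Bmp4 and Bmp7, were both lower in transgenic tumours, where 6.31% of all kept probe sets had non-overlapping groups in that direction and 4.61% in the other.

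Bmp2, a ligand of differentiated colon epithelium and of mesenchyme, had 1 probe set, at 9.55, 9.50 and 9.98 on the transgenic arrays and at 9.82, 9.13 and 8.78 on the control arrays. Control array 1 lay among the transgenic values and the other two controls below them. The difference was 0.43 ± 0.30 (SE; 95% interval -0.29 to 1.16; limma adjusted p 0.806), 0.72 without control array 1 and 0.20 without control array 3. Bmp2 and Bmp7 were the 2 members whose control arrays spread most, over 1.03 and 1.35 on the log2 scale.

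Inhba encodes the beta A subunit that forms activin A. It lay at 9.63, 5.84 and 7.85 on transgenic arrays 1, 2 and 3 and at 7.86, 7.56 and 7.51 on control arrays 1, 2 and 3 (1422053_at). Transgenic array 1 was above and transgenic array 2 below every control array, and the 3 controls lay within 0.36 of each other. The mean difference of 0.13 ± 0.89 (SE; 95% interval -2.01 to 2.28; limma adjusted p 0.978) averaged over opposite deviations of 1.99 on array 1 and -1.80 on array 2, and it came to -0.80 if transgenic array 1 is left out and to 1.10 if transgenic array 2 is. The other Inhba probe set, 1458291_at, was at 1.62 to 1.97 on all arrays.

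The receptor genes had near-equal means and a wider spread among transgenic arrays. Tgfbr1, the type I receptor kinase that phosphorylates Smad2 and Smad3, lay at 9.90, 9.20 and 9.20 on the transgenic arrays and at 9.42, 9.47 and 9.46 on the control arrays (1420895_at). The difference was -0.01 ± 0.23 with a 95% interval of -0.56 to 0.54 (limma adjusted p 0.992), and its sign turned when arrays were centred on their medians. Tgfbr2, the type II receptor that binds TGF-beta first, lay at 11.62, 10.89 and 11.33 on the transgenic arrays and at 11.35, 11.40 and 11.37 on the control arrays (1426397_at). The difference was -0.09 ± 0.21 with a 95% interval of -0.61 to 0.42 (limma adjusted p 0.931). For both genes transgenic array 1 was the highest of the 6, and the control arrays lay within 0.05 of each other. Without transgenic array 2 the differences were 0.11 for Tgfbr1 and 0.10 for Tgfbr2. Their other probe sets, 2 for each gene, stayed under 4 on every array and were not kept.

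Id1, an inhibitor of basic helix-loop-helix factors and a direct target of BMP-activated Smads, lay at 11.96, 11.77 and 12.13 on the transgenic arrays and at 12.04, 12.30 and 12.34 on the control arrays (1425895_a_at). Transgenic array 3 lay above control array 1, and the other transgenic arrays lay below all controls. The difference was -0.27 ± 0.17 (SE; 95% interval -0.69 to 0.14; limma adjusted p 0.806). Id1 was lower in transgenic tumours in all 6 fits that left out an array, by 0.18 to 0.37 on the log2 scale.

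**Figure D2:**
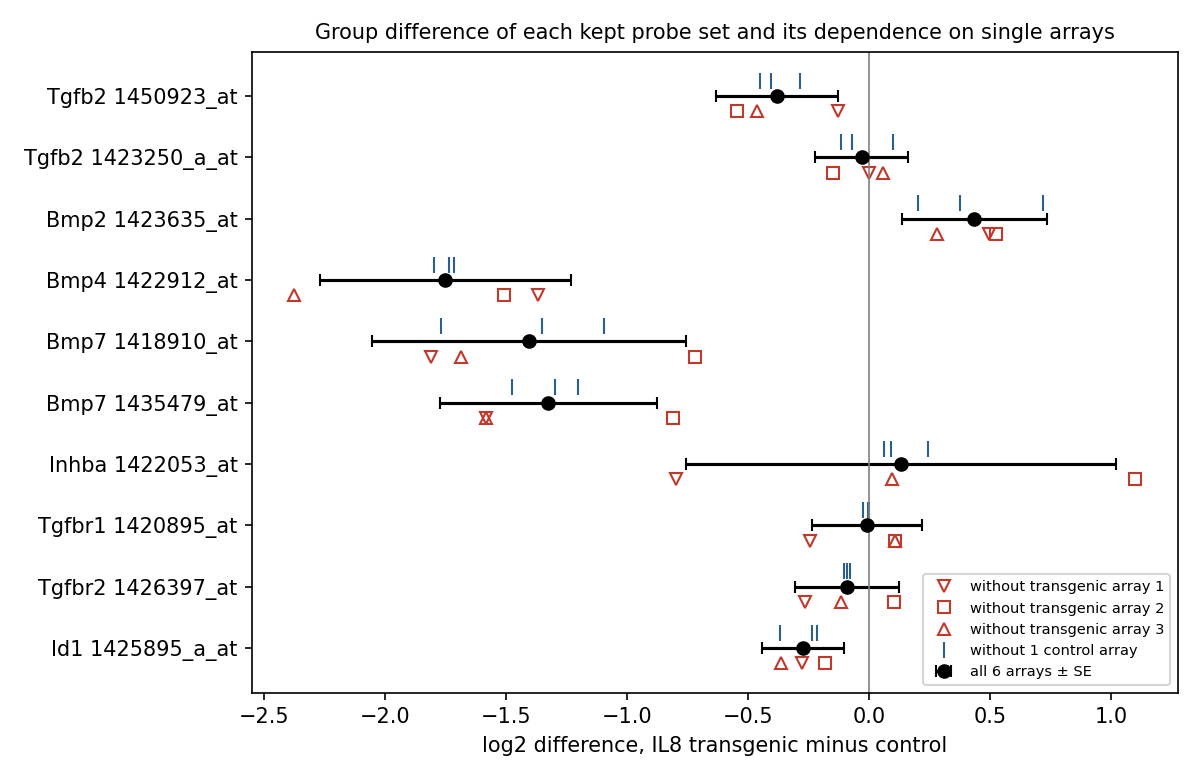
Log2 difference, transgenic minus control (x axis), for the 10 kept probe sets. Black points are fits to all 6 arrays with ± 1 SE, open red symbols leave out the transgenic array named in the legend, and blue ticks leave out a control array. Bmp4, both Bmp7 probe sets and Id1 stay below 0 throughout, Bmp2 stays above 0, and Inhba runs from -0.80 to 1.10.

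Within the transgenic group the members varied more than within the control group. The SD was larger among transgenic arrays for 8 of the 10 kept probe sets, with a median of 0.42 in transgenic and 0.18 in control tumours. Over all kept probe sets the transgenic SD was the larger for 69.7%, with medians of 0.31 in transgenic and 0.20 in control tumours. The arrays differed in which members they set apart. Transgenic array 1 had the lowest Bmp4 and the highest Inhba, Tgfbr1 and Tgfbr2 values, transgenic array 2 the lowest Bmp7, Inhba, Tgfbr2 and Id1 values, and transgenic array 3 lay within 0.85 of the control mean for each of the 8 genes. For the brightest kept probe sets, the median deviation of the 8 genes from their control means was -0.01 on transgenic array 1, -0.47 on transgenic array 2 and -0.15 on transgenic array 3, against -0.04, 0.03 and 0.00 on control arrays 1, 2 and 3.

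Over the 6 arrays, the genes whose patterns were most like each member's brightest kept probe set were named as a description, since arrays that stand apart are shared by all of them. For Bmp4 these were Scoc and Gtf3c4 (Pearson r 0.998 and 0.997 over 6 arrays), and for Bmp7 Nanos1 and Bzw2 (0.998 for each). For Inhba they were D930016D06Rik and Nisch (0.997 and 0.995), for Tgfbr1 Zfr and Fam104a (0.996 and 0.995), and for Tgfbr2 Smox and Rest (0.997 for each). For Id1 they were Hsbp1 and Ism1 (0.997 and 0.995), for Bmp2 Abcb1a and Sltm (0.981 and 0.976), and for Tgfb2 Col27a1 and Capzb (0.993 and 0.989). No member was among the 2 genes most like another member, which were picked from all 10289 genes tested. Between different members, r over the 6 arrays ran from -0.747 (Tgfb2 1450923_at and Inhba) to 0.948 (Inhba and Tgfbr2).

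The other genes of the pathway were read from 6 lists of 94 genes, of which 47 had a kept probe set, taking the brightest per gene. None passed limma's test over all kept probe sets (0 of 47, against 0.0486% of all genes tested), and 6 of 47 had an unadjusted p under 0.05, against 5.82% of all genes. In transgenic tumours 29 of the 47 had a lower and 18 a higher mean, with a median of -0.17 against -0.02 over all genes tested. Groups did not overlap for 8 genes that were lower and for 2 that were higher, where 6.75% of all genes were lower and 4.77% higher without overlap.

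Of 25 other ligands, 3 were kept, 2 lower and 1 higher. Bmp5, another BMP of gut mesenchyme, lay at 6.52, 6.09 and 8.23 on the transgenic arrays and at 8.50, 8.69 and 8.50 on the control arrays (1455851_at). As for Bmp4, transgenic arrays 1 and 2 were far below the controls and array 3 just below them. The difference was -1.62 ± 0.54 (SE, unadjusted p 0.0223, limma adjusted p 0.806), and 2 further probe sets differed by -0.99 and -1.05. Inhbb, the beta B subunit of activins, differed by -0.85 ± 0.85 and lay at 8.38, 4.82 and 7.20 on the transgenic arrays and at 7.53, 7.63 and 7.80 on the control arrays, so that transgenic array 1 was above every control and transgenic arrays 2 and 3 were below. Leaving out transgenic array 2 gave an Inhbb difference of 0.14, and leaving out array 1 gave -1.64. Bmp8b differed by 0.22 ± 0.23 at a level near 4.

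Of 16 other receptors and co-receptors, 8 were kept, 4 higher and 4 lower, with a median difference of 0.01 and none without overlap. The activin type I receptor gene Acvr1b differed by 0.28 ± 0.21, the co-receptor gene Tgfbr3 by 0.42 ± 0.66 and the activin type II receptor gene Acvr2a by 0.05 ± 0.18. Endoglin (Eng), an endothelial co-receptor, differed by -0.31 ± 0.24, the BMP co-receptor gene Rgmb by -0.29 ± 0.29 and the BMP type II receptor gene Bmpr2 by -0.03 ± 0.17. Rgmb had 4 kept probe sets that ran from -0.51 to 0.09, and Tgfbr3 was at 7.95 on transgenic array 2, against 6.45 or less on every other array, and differed by -0.31 without it. With 1 array left out, the differences ran from 0.13 to 0.41 for Acvr1b, from -0.07 to 0.14 for Acvr2a, from -0.49 to -0.12 for Eng, from -0.52 to -0.06 for Rgmb and from -0.18 to 0.06 for Bmpr2, so that the sign turned for Acvr2a and Bmpr2.

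Of 8 Smads, 7 were kept, 3 higher and 4 lower. Smad7, an inhibitory Smad that TGF-beta itself induces, lay at 7.88, 7.27 and 8.03 on the transgenic arrays and at 8.24, 8.45 and 8.21 on the control arrays. All transgenic arrays were below all controls, by 0.18 or more. The difference was -0.57 ± 0.23 (SE, unadjusted p 0.0468, limma adjusted p 0.806) and -0.35 without transgenic array 2. Smad6, the inhibitory Smad of the BMP arm, lay at 8.73, 7.17 and 8.70 on the transgenic arrays and at 8.92, 9.35 and 8.88 on the control arrays, a difference of -0.85 ± 0.45 (-0.33 if transgenic array 2 is left out). Among the signal-carrying Smads, Smad5 differed by -0.17 ± 0.14, Smad1 by 0.09 ± 0.14, Smad2 by 0.07 ± 0.13 and the shared Smad4 by 0.26 ± 0.23 (0.15 to 0.46 with 1 array left out). Smad3, added after its values were seen, differed by -0.11 ± 0.23, and by 0.05 without transgenic array 2. A second, dimmer Smad2 probe set differed by -0.07.

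Of 18 extracellular antagonists and latent TGF-beta binding proteins, 9 were kept, 6 lower and 3 higher. Ltbp1, which holds latent TGF-beta in the matrix, lay at 7.17, 6.46 and 6.82 on the transgenic arrays and at 7.49, 7.49 and 7.73 on the control arrays, without overlap. Its difference of -0.76 ± 0.22 (SE) had the smallest unadjusted p among the 47 genes, 0.0120, with a limma adjusted p of 0.806. Twsg1, a BMP-binding protein, lay at 9.94, 9.32 and 10.33 on the transgenic arrays and at 10.45, 10.77 and 10.67 on the control arrays, a difference of -0.77 ± 0.28 (-0.49 if transgenic array 2 is left out). Grem1, the BMP antagonist gremlin, lay at 8.87, 10.41 and 9.47 on the transgenic arrays and at 8.72, 7.40 and 9.30 on the control arrays. The groups overlapped, transgenic array 2 was highest and control array 2 lowest. The Grem1 difference was 1.11 ± 0.59 (SE, limma adjusted p 0.806), 0.70 without transgenic array 2 and 0.57 without control array 2. Ltbp2 differed by 0.55 ± 0.83, the activin antagonist gene Fst by 0.38 ± 0.61 and the BMP antagonist gene Nbl1 by -0.26 ± 0.23. The sign turned without transgenic array 2 for Ltbp2 (-0.24) and without transgenic array 1 for Fst (-0.31).

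**Figure D3:**
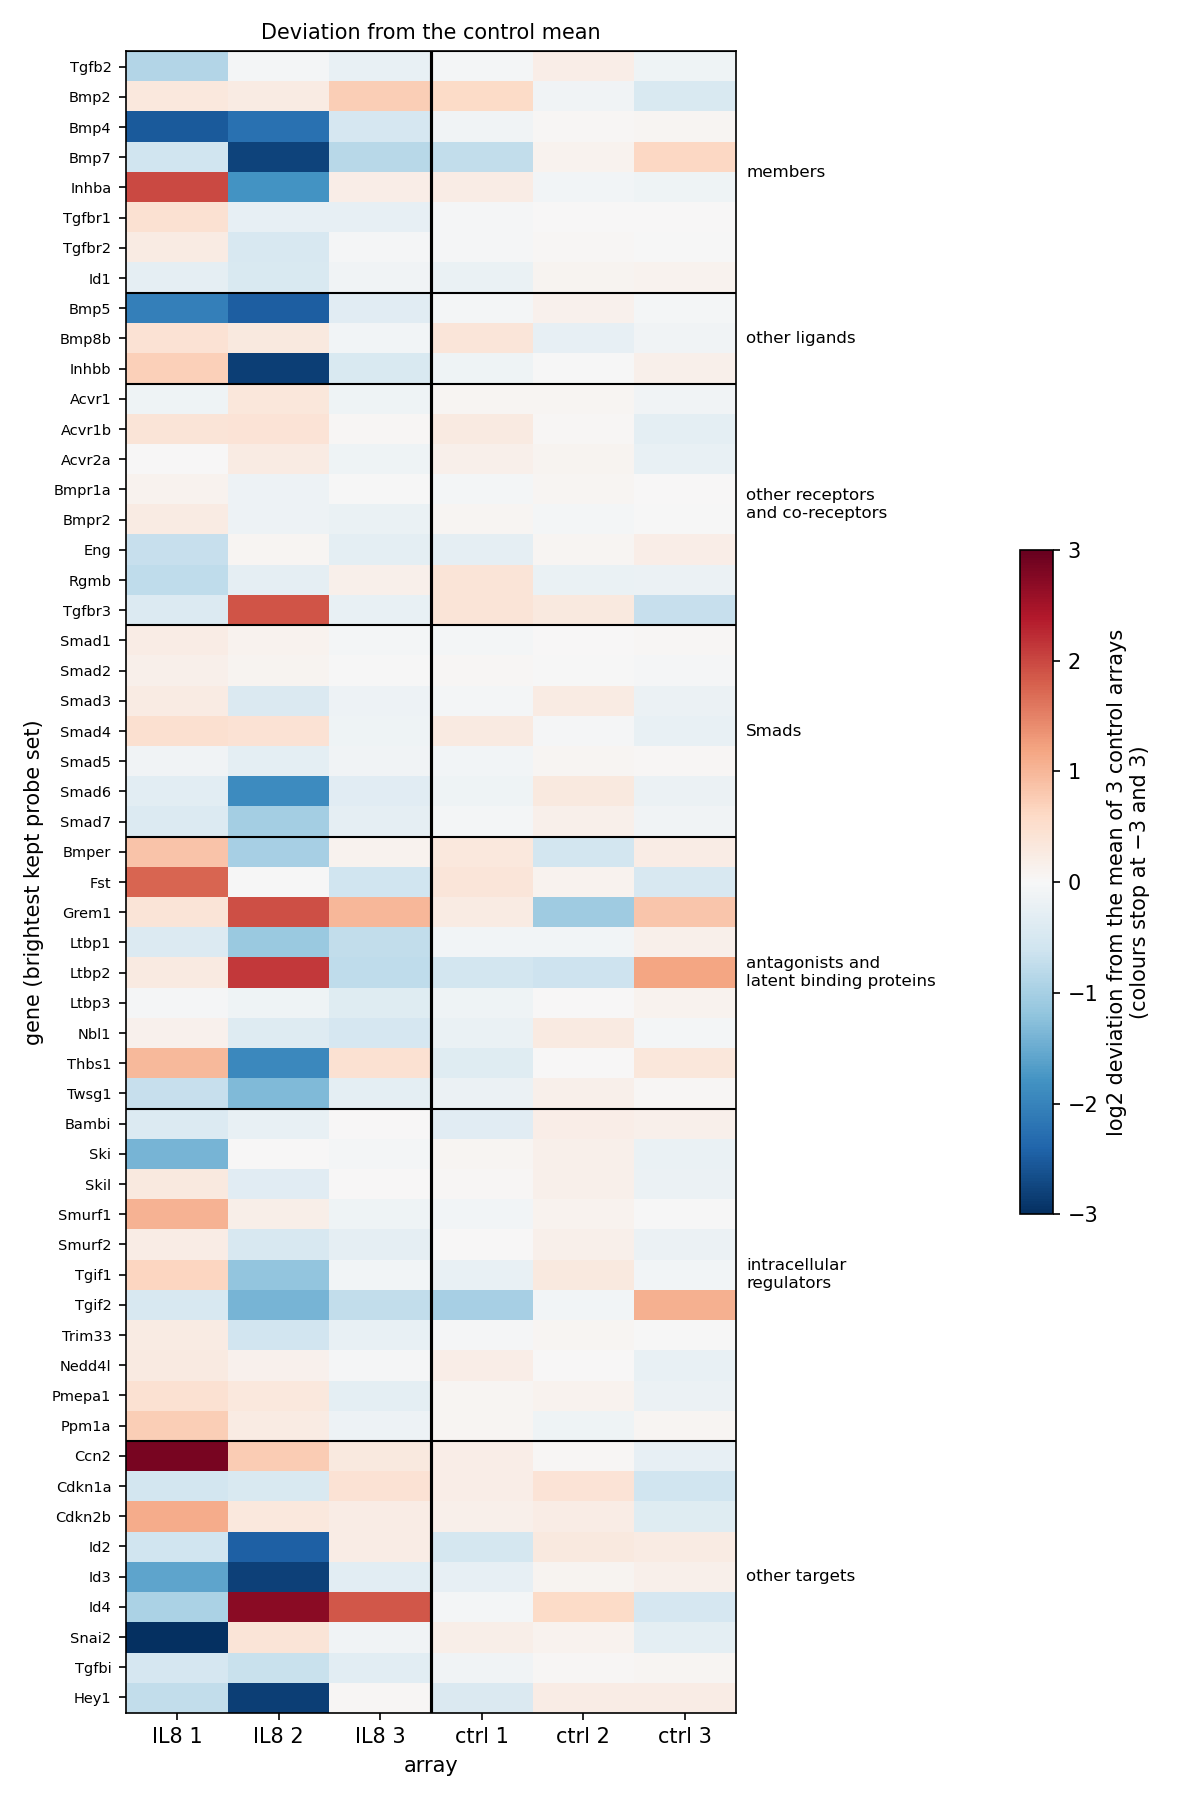
Log2 deviation from the mean of the 3 control arrays for the 8 kept members and the 47 other kept pathway genes (rows, grouped by role) on each array (columns, transgenic on the left). Red is above and blue below the control mean, with colours stopping at 3 either way. Bmp4, Bmp5 and Id3 are blue on transgenic arrays 1 and 2, while Inhba and Inhbb are red on array 1 and blue on array 2.

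Of 12 intracellular regulators, 11 were kept, 7 lower and 4 higher, with a median of -0.17 and no gene without overlap. The repressor genes Tgif2 and Ski differed by -0.87 ± 0.54 and -0.49 ± 0.40, and the decoy receptor gene Bambi by -0.21 ± 0.21. Without transgenic array 1, Ski differed by -0.03. The ubiquitin ligase genes Smurf1 and Nedd4l differed by 0.37 ± 0.31 and 0.12 ± 0.17, and the phosphatase gene Ppm1a by 0.28 ± 0.25. Without transgenic array 1, Smurf1 differed by 0.03 and Ppm1a by 0.05. Tgif2 differed by -0.34 without control array 3 and by -1.38 without control array 1, while Bambi ran from -0.38 to -0.11 and Nedd4l from 0.01 to 0.22 with 1 array left out. Ppm1a had 5 kept probe sets that ran from -0.89 to 0.28, and Nedd4l had 3 that ran from -0.21 to 0.39.

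Of 15 other targets, 9 were kept, 6 lower and 3 higher, with a median of -0.50. Id3, a BMP target and relative of Id1, lay at 9.93, 8.70 and 11.19 on the transgenic arrays and at 11.26, 11.60 and 11.67 on the control arrays. Transgenic arrays 1 and 2 were far below the controls, and array 3 was 0.07 below the lowest of them. Its difference was -1.57 ± 0.59 (SE, unadjusted p 0.0368, limma adjusted p 0.806) and -0.95 without transgenic array 2. Tgfbi, a matrix protein induced by TGF-beta, lay at 11.42, 11.25 and 11.60 on the transgenic arrays and at 11.81, 11.96 and 11.99 on the control arrays. Its difference of -0.50 ± 0.16 (SE, unadjusted p 0.0183, limma adjusted p 0.806) ran from -0.58 to -0.41 with an array left out, and its 3 other kept probe sets differed by -0.33 to -0.59. Hey1, a target that Notch also drives, differed by -1.18 ± 0.72 and by -0.35 without transgenic array 2.

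On the higher side, Ccn2, a matrix-associated growth factor induced by TGF-beta, lay at 13.24, 11.16 and 10.69 on the transgenic arrays and at 10.61, 10.43 and 10.15 on the control arrays. The groups did not overlap, but transgenic array 3 was 0.08 above the highest control, and the difference of 1.30 ± 0.65 (SE, limma adjusted p 0.806) was 0.53 without transgenic array 1. Cdkn2b, a cell cycle inhibitor induced by TGF-beta, also had non-overlapping groups, with a difference of 0.55 ± 0.30 (0.27 if transgenic array 1 is left out), although transgenic array 3 exceeded the highest control by only 0.0009. Id4 differed by 1.21 ± 0.92, or by 2.29 without transgenic array 1 and 0.46 without transgenic array 2.

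Marker lists of 8 other cell types were read on the same arrays. Of 10 fibroblast markers, 9 were kept and all 9 had a lower mean in transgenic tumours, by 0.27 to 1.24 on the log2 scale. Groups did not overlap for 3 of these 9. Over all genes tested, 53.8% had a lower mean and 6.75% were lower without overlap. Fap lay under 4 on every array and went the other way, at 3.12 to 3.73 in transgenic and 2.77 to 3.08 in control tumours. The summed linear level of all 10 was 9669 to 18012 in transgenic and 19381 to 22780 in control tumours. The fibroblast list's mean deviation from control was -1.19, 0.01 and -0.42 on transgenic arrays 1, 2 and 3, where Bmp4 deviated by -2.52, -2.23 and -0.50. The 0.01 on transgenic array 2 averaged over opposite deviations. Pdgfra lay at 9.40, 8.71 and 10.14 on the transgenic arrays and at 10.56 to 10.81 on the control arrays. Col1a1 lay at 6.60, 9.55 and 8.05 on the transgenic arrays and at 8.33 to 8.35 on the control arrays. Of 8 smooth muscle markers, 0 lay under 4 on every array. Their summed level was 2081 to 11067 in transgenic and 3242 to 3692 in control tumours. The 6 that were kept all had a higher mean in transgenic tumours, by 0.07 to 3.01, with overlapping groups. Over all 10289 genes tested, 4753 had a higher mean. All 8 macrophage markers were kept, 7 of them with a lower mean, and 3 of these without overlap between groups. Cd14, higher by 0.32, lay at 11.43 on transgenic array 1, where it was the brightest of the 8. The summed level of all 8 was 2593 to 5291 in transgenic and 4750 to 5948 in control tumours. This overlap of the sums includes Cd14, and sums without it were not taken. The macrophage list's mean deviation from control was -0.88, -1.88 and -0.53 on transgenic arrays 1, 2 and 3, and that of the smooth muscle list was -0.72, 3.15 and 2.01. Of the 7 squamous markers on the array, 0 lay under 4 on every array, and their summed level was 22175 on transgenic array 2 and 385 to 473 on the other transgenic arrays, against 144 to 386 on the control arrays. The 7 endothelial markers, with Tie1 under 4 on every array, summed to 150 to 198 in transgenic and 273 to 287 in control tumours, a separation that Sox18 carried, since the other 6 summed to 114 to 151 in transgenic and 113 to 160 in control tumours, and Emcn had a higher mean in transgenic tumours by 0.51. The 6 neutrophil markers, with Cxcr2 and Mpo under 4 on every array, summed to 4121 to 6996 in transgenic and 2409 to 3665 in control tumours. S100a8 and S100a9 made up nearly all of this sum, and the other 4 markers summed to 34.0 to 77.0 in transgenic and 32.5 to 43.9 in control tumours. The 5 T cell markers, none of them kept and Cd3e, Cd3g and Cd4 under 4 on every array, summed to 34.1 to 45.2 in transgenic and 50.5 to 57.6 in control tumours. The 5 B and plasma cell markers, with Cd79a under 4 on every array, summed to 4837 to 8054 in transgenic and 2318 to 5937 in control tumours. Among them Ighm, the immunoglobulin M heavy chain gene, was the only gene of all the marker lists that passed limma's test. It lay at 11.64, 9.93 and 9.73 on the transgenic arrays and at 3.36, 4.25 and 4.35 on the control arrays (difference 6.45 ± 0.56, SE, adjusted p 0.0316). With 1 array left out, the Ighm difference ran from 5.84 to 6.80. Its limma adjusted p was 0.0165 when transgenic array 1 was dropped. Dropping any other array gave 0.0783 to 0.274, so Ighm did not pass in those fits. Jchain, the other kept gene of this list, differed by 0.25 ± 0.38 (SE, limma adjusted p 0.892), with overlapping groups. The part of these cell types in the Bmp4, Bmp7, Inhba and Id3 values was not tested.

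**Figure D4:**
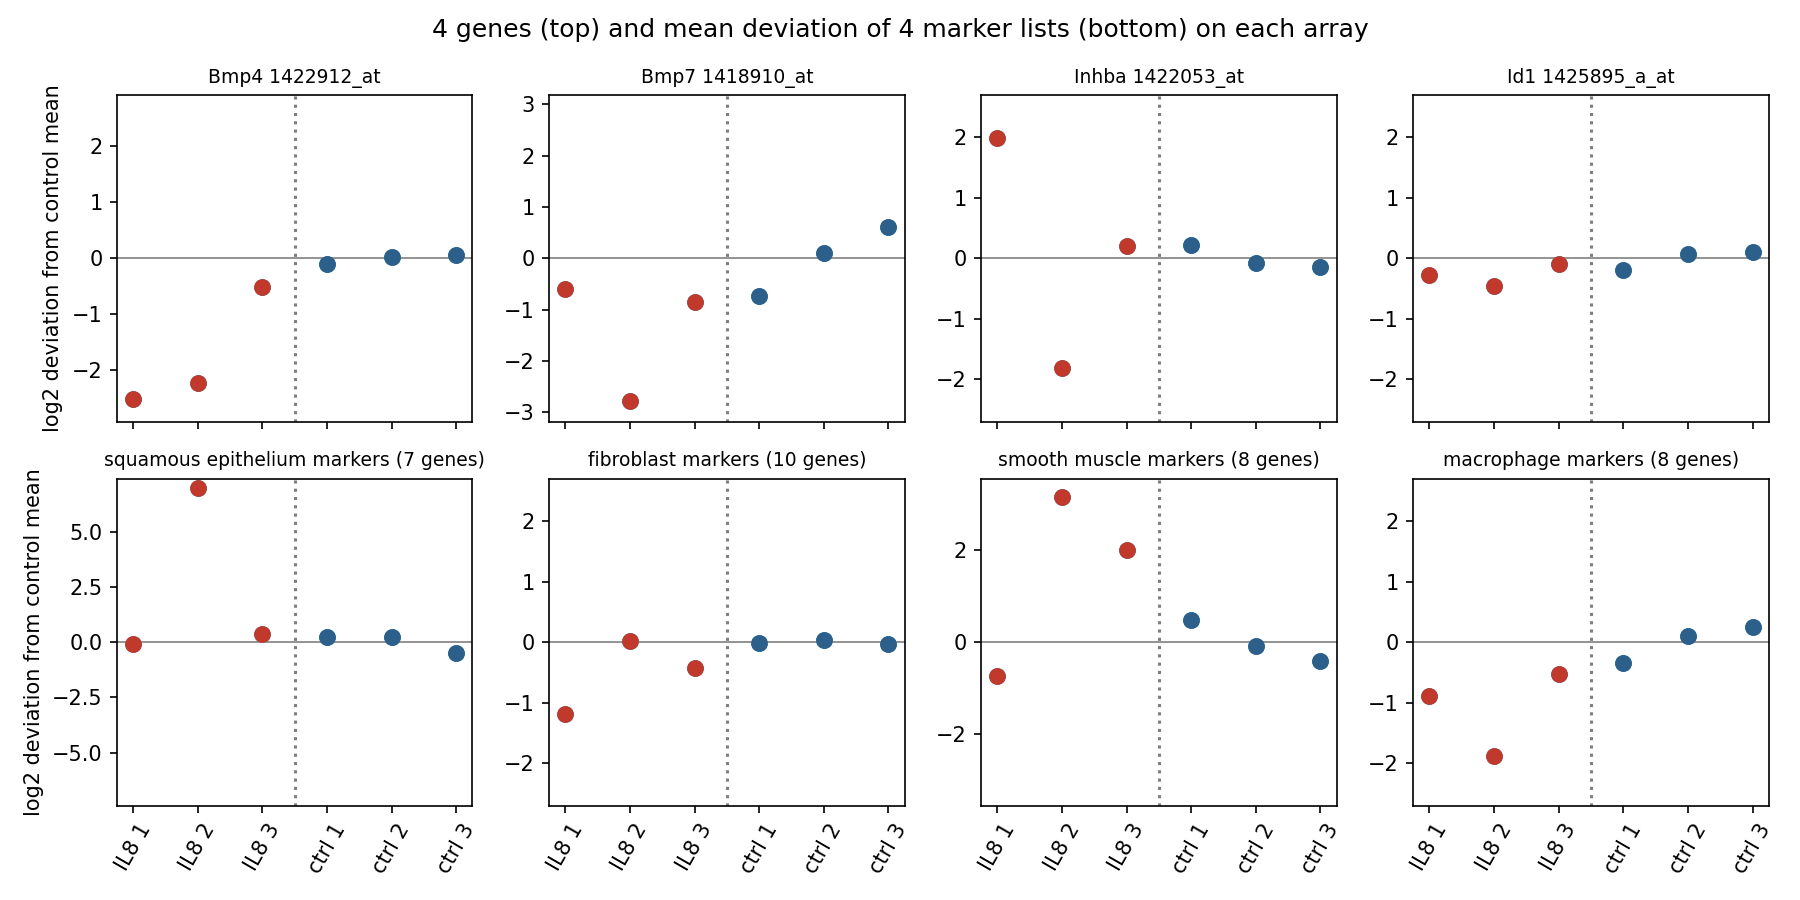
Log2 deviation from the control mean on each array for Bmp4, Bmp7, Inhba and Id1 (top) and the mean deviation of 4 marker lists (bottom), with transgenic arrays in red on the left, control arrays in blue on the right, and the y range set for each panel. Bmp4 is low on transgenic arrays 1 and 2, the fibroblast list is lowest on transgenic array 1, at -1.19, and the squamous list stands at 7.01 on transgenic array 2.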

How the data were processed

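Gene expression was measured on 6 Affymetrix arrays, 3 per group. The deposited values are log2 expression made by the authors with GCRMA (background correction, then a summary), per the submitters' processing notes; no version was given, and the log2 scale was read from the values. They were used as deposited. Gene names came from the platform annotation; 34958 of 45101 probe sets had 1 symbol, 932 several and 9211 none listed. Probe sets at log2 4 or more on at least 3 arrays were kept (19310, without the 64 AFFX controls). Transgenic minus control was fitted with limma 3.58.1 in R 4.3.3 (lmFit, eBayes) with Benjamini-Hochberg adjustment over all kept probe sets and a threshold of 0.05. A gene with several kept probe sets is represented by the brightest over all arrays. The fit was tested on simulated data with the same spread in both groups, so that test did not cover unequal spread. The main fit takes a common spread for both groups, so its SEs, intervals and p-values do not allow for the wider transgenic spread. The number of arrays limits the precision.

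The members and lists were chosen with earlier results of these data known. All members were named, with up to 3 genes per direction of smallest unadjusted p from each pathway list, and the 2 genes most correlated with each member; the per-array values of other genes check labels and cell types. Alternatives were no filter, a filter at 6, quantile normalization, median centring, a trended and robust prior, the replicate number as a block, weights for array quality, a floor at 4, the mean of a gene's probe sets, and leaving out each array. Symbols and sequences were matched to RefSeq tables of GRCm38.p6; 6 of 10 members had a promoter.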

Additional observations from a re-analysis of the deposited data

How the results depend on the processing

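The count of member probe sets called and of other pathway genes called was 0 under every alternative run, and the count over all kept probe sets, 11, ran from 8 to 12. The median over the member genes, -0.18, ran from -0.27 to -0.04 with 1 array left out (-0.04 without transgenic array 2), and was -0.06 with no filter, which brings in Tgfb1 and Tgfb3, and -0.09 with the filter at 6, which leaves 7 probe sets. The replicate numbers in the titles did not pair the arrays (same-numbered arrays correlated at -0.27, -0.28 and -0.05 in their deviations from group means), and with the replicate number as a block 8 probe sets were called over all, 0 of them members, with a member median of -0.18. Bmp2, Bmp4, both Bmp7 probe sets, Id1 and the brighter Tgfb2 probe set kept their sign under each alternative that gave them a value; the filter at 6 left out that Tgfb2 probe set and Bmp7 1435479_at, and the mean of probe sets was taken for the median alone. Signs turned where the difference was near 0: Tgfb2 1423250_a_at was 0.000245 with quantile normalization and -0.15 to 0.10 with 1 array left out, Tgfbr1 was 0.00148 with median centring and -0.24 to 0.11 with 1 array left out, and Tgfbr2 was -0.26 to 0.10 with 1 array left out. Inhba was -0.80 to 1.10 with 1 array left out. The cause was not tested. Tgfb1 and Tgfb3 lay under 4 on every array, where the signal over background limits what can be said.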
